A study of Mus musculus with 3 samples.

Results

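Secreted matrix glycoproteins of mouse EGFR-driven glioblastoma (GBM) are described here through 10 named genes of the 50262 in the deposited count table. They are the tenascin gene Tnc, the thrombospondin genes Thbs1 and Thbs2, the fibronectin gene Fn1, the fibulin gene Fbln2, the basement membrane and dystroglycan-binding genes Tinagl1 and Egflam, the EMI domain gene Emid1, the collagen-binding gene Sparc and the galectin gene Lgals1. The genes were listed by name, with their levels in the cell classes of these data already known, so the levels by class and stage below are descriptions and carry no test. All 10 had UMIs in the table, from 2045 for Emid1 to 104797 for Sparc.

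Tumors were started in the striatum by stereotactic injection of a Cre lentivirus, which switched on conditional wild-type human EGFR (hsEGFR) in mice with constitutive loss of Cdkn2a. Every sample carried these alleles and a conditional luciferase reporter on a mixed strain background, with 12 to 16 weeks as the age of the males and females used. Brains without the cerebellum were dissociated and sorted on CD45, the leukocyte surface protein, into CD45+ immune and CD45- tumor and other non-immune cells, and each cell's mRNA was captured by inDrop droplets and counted as unique molecular identifiers (UMIs). There was 1 tumor sample at each of the early, medium and late stages (late is "large" in the sample labels), each in 3 or 4 technical libraries per sort over 3 sequencing runs, and where cells were few, as in early tumors, cells of more than 1 mouse were pooled. No tumor-free brain was analysed here.

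Matrix glycoproteins fill the space between cells and bind collagens, proteoglycans and cell surface receptors such as integrins, syndecans, CD36 and dystroglycan. In the healthy adult brain much of this matrix lies in the basement membranes of vessels and meninges, whereas proteins such as tenascin-C and the thrombospondins are called matricellular, because they act on cells more than they build structure, and appear in development, injury and glioma. Their mRNA level in a class of cells says which cells could make the protein, not where it is laid down.

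Promoter sequences are shown for 4 of the members whose levels were higher together in one type of glioma cell, so that the bases next to their start sites can be compared. They run from 250 bases upstream to the base before the start site, 5′ to 3′ on the gene's strand, from RefSeq on build GRCm38.p6, and all 4 genes lie on the minus strand. Capitals mark matches on either strand to TGANTCA (an AP-1 motif), GGAATG (a TEAD motif) or TATAAA (the TATA box).
Tnc, chr4:64047016-64047265: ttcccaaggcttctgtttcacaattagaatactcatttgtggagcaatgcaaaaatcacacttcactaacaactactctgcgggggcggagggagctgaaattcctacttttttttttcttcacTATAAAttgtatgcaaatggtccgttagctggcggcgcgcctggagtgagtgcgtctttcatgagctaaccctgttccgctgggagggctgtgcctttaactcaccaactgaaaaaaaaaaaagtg
Thbs2, chr17:14694263-14694512: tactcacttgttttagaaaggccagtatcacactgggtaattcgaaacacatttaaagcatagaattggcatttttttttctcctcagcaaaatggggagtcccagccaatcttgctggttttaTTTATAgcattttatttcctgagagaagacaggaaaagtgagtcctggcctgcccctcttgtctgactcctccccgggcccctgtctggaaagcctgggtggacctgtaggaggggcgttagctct
Egflam, chr15:7398396-7398645: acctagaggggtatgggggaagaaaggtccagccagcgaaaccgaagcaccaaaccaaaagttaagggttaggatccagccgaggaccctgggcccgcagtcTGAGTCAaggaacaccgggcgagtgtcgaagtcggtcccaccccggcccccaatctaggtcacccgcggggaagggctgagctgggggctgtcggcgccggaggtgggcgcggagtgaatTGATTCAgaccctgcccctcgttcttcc
Tinagl1, chr4:130175123-130175372: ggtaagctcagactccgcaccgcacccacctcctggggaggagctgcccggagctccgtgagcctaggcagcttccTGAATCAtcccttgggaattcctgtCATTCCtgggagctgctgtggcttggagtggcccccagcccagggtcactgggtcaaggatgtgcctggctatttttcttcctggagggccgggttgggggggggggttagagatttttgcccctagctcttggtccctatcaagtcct
Tnc and Thbs2 each had 1 match to TATAAA, 126 bases before the start, on the reverse strand in Thbs2. Egflam had 2 matches to TGANTCA, at 148 and 28 bases, and Tinagl1 had 1 at 174 bases and a reverse-strand GGAATG at 149 bases. No 2 of these matches overlapped. Of 32851 mouse promoters cut to the same 250 bases, 6.75% held TGANTCA, 12.6% GGAATG and 12.4% TATAAA. RefSeq promoters were matched for 7 of the 10 members, and those of Emid1, Fbln2 and Sparc held none of the 3 motifs in this window. These matches describe letters and do not show that a factor binds there.

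After filters on UMIs, genes, mitochondrial reads and doublets, 17764 of 20794 cells were kept. Each sort of a stage held 1603 to 5091 cells and 5319519 to 10808099 UMIs, with median UMIs per cell of 1964 to 3078.5. The CD45- cells with at least 2 hsEGFR UMIs numbered 1159, and 1135 of them were typed by clustering them on their own. Of the 1159 cells 692 lay in clusters of glioma or oligodendrocyte progenitor markers, with 421 of 858 late cells and 0 of 4 early ones. The other typed cells lay in clusters without a class name. Other classes are called X-like where a cluster held at least 3 markers of a fixed list, and 5 of 33 clusters stayed unnamed. Stromal and neural classes hold CD45- cells without a hsEGFR UMI, and immune classes hold CD45+ cells. The words without the transgene below mean no counted hsEGFR UMI, which does not show that a cell lacks it. Whether tumor cells lie in these stromal and neural classes was not tested. Each subcluster's summed levels of Lgals1 and of Pdgfra were taken relative to those of all the cells clustered this way. A subcluster was called Lgals1-type when its relative Lgals1 level was the higher of the 2, and Pdgfra-type otherwise. This fixes the Lgals1 difference between the types in advance. Lgals1-type cells numbered 4 early, 102 medium and 420 late, and Pdgfra-type cells 0, 178 and 431. Levels are a gene's UMIs scaled to a total of 1000000 UMIs over the summed cells (CPM), so they can be compared between classes for 1 gene, but not between genes, whose transcripts were not corrected for capture or length. Intervals are 95% exact Poisson or binomial intervals and cover counting error only.

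Technical libraries were not wholly separate. A cell barcode was shared with another library of the same tumor sample and sort by 2103 kept cells (11.8%), and 87.4% of the 1314 shared pairs fell in the same cell class, against 11.3% of the 953 pairs between other libraries. Among the typed glioma cells 356 of 1135 (31.4%) had such a barcode, including 170 of the late Lgals1-type and 172 of the late Pdgfra-type cells. With these barcodes left out, the late Lgals1-type levels were 823 CPM for Tnc and 1569 for Fbln2, beside 878 and 1568 with them. Technical libraries are therefore not independent, and their spread is given as a description.

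**Figure D1:**
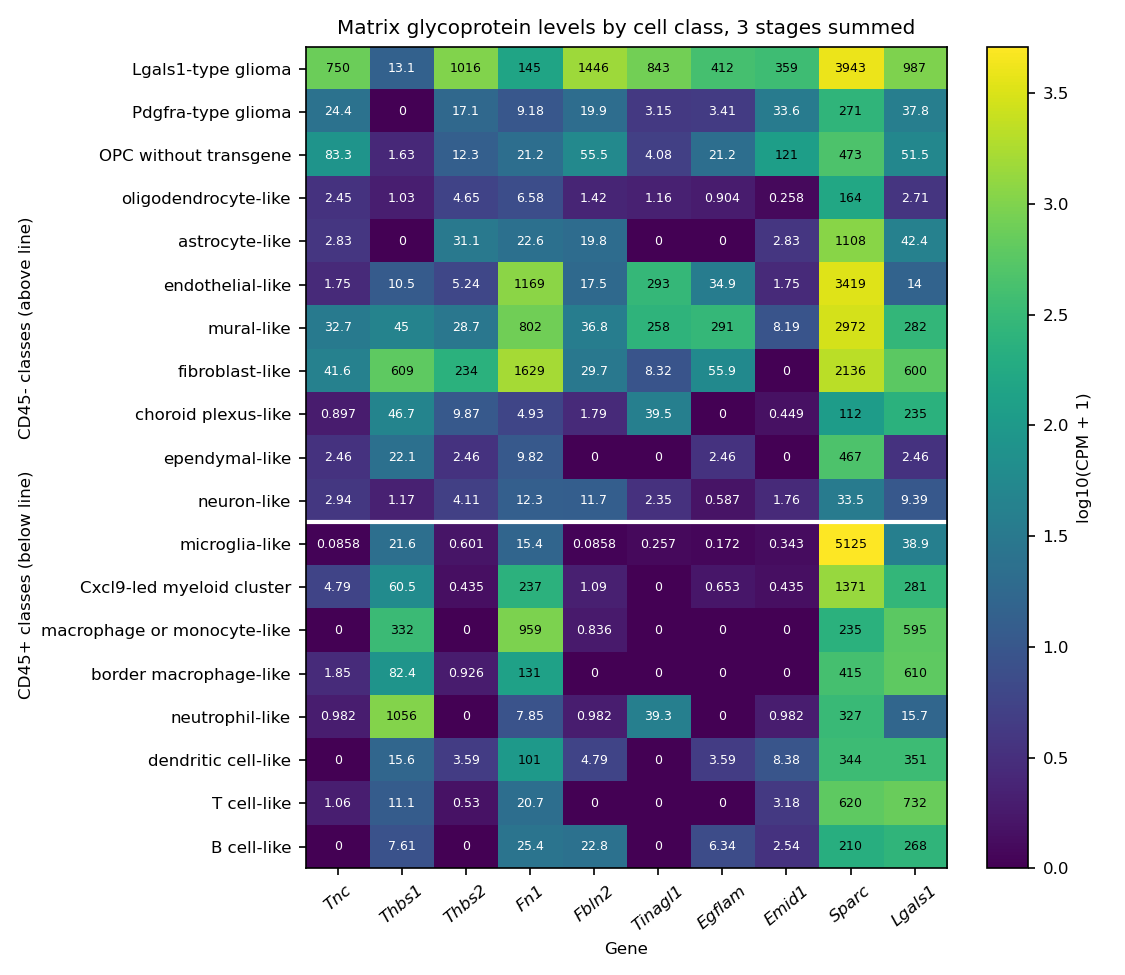
Heat map of the level of each of the 10 genes (columns) in 19 cell classes (rows), with the 3 stages summed and the classes of the CD45- sort above the white line. Each number is CPM and the color is log10 of that value plus 1. Lgals1-type glioma cells hold the highest values of their column for Tnc (750), Thbs2 (1016), Fbln2 (1446), Tinagl1 (843), Egflam (412), Emid1 (359) and Lgals1 (987), while neutrophil-like cells do so for Thbs1 (1056), fibroblast-like cells for Fn1 (1629) and microglia-like cells for Sparc (5125). Of the 526 Lgals1-type cells 420 are from the late sample, so the sums weigh that stage most.

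The order of classes was not the same at each stage. In the medium sample Lgals1-type cells were below progenitors without the transgene (the oligodendrocyte progenitor class without a hsEGFR UMI) for Tnc (169 against 182 CPM) and Emid1 (85.2 against 156). They were below mural-like cells, the pericytes and smooth muscle of vessels, for Tinagl1 (13.1 against 486) and Egflam (239.8 against 324), and below fibroblast-like cells for Lgals1 (436 against 783). Other classes were above them too, among them endothelial-like cells for Tinagl1 (306). For Lgals1 these were border macrophage-like, T cell-like and macrophage or monocyte-like cells, with levels given further on. Levels without 1 library, named as in the annotation, were added after seeing the data and are given for some of the levels that 1 library moved by over 1.5 times. Without library T28A the progenitor level of Tnc was 54.8 and the fibroblast-like level of Lgals1 443, so the order for Tnc rested on that library.

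Whether the hsEGFR cells themselves hold the matrix transcripts, and which of them, was asked first. All 10 genes were at least 2-fold higher in Lgals1-type than in Pdgfra-type cells of the late sample, where 12.3% of the 16065 genes with at least 10 UMIs were, 18.4% were as much lower and 30.7% passed either way. All 10 were so in the medium sample too, where the shares were 10.9% higher, 22.2% lower and 33.1% either way of 13147 genes. The median log2 ratio of the 10 genes was 5.30 late and 3.54 medium, against -0.18 and -0.20 over all genes compared. Since the genes and the types were chosen on these same cells, this shared direction was set by the choice.

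Tnc encodes tenascin-C, a large hub-shaped glycoprotein that modulates adhesion. In Lgals1-type cells it stood at 249, 124, 256 and 72.8 CPM in the 4 medium libraries and at 767, 864, 919.5 and 972 in the 4 late ones. In Pdgfra-type cells it was at 0, 0, 0 and 52.2 in the medium libraries and 32.5, 54.3, 15.1 and 5.32 in the late ones. The ranges of the types did not overlap at either stage, although the 18 medium Pdgfra-type UMIs all came from 1 library. Summed, the log2 ratio of Lgals1-type to Pdgfra-type cells was 4.89 (interval 4.57 to 5.25) late and 3.54 (interval 2.86 to 4.37) medium, and within single sequencing runs the late ratio spanned 4.18 to 7.29 and the medium ratio 0.49 to 8.08, with the lowest in run 3, whose library held the 18 Pdgfra-type UMIs. Where a type had no UMI in a run, as here in the other 2 runs, the ratio rests on the prior of 0.5 counts and is no bound.

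Thbs2 and Thbs1 encode trimeric secreted thrombospondins that bind CD36 and CD47 and restrain vessel growth. Thbs2 was at 318, 229, 138 and 233 CPM in the medium libraries and 1136, 1140.2, 1337 and 1121 in the late ones of Lgals1-type cells. In Pdgfra-type cells no Thbs2 UMI was counted in the medium sample, which allows a level of up to 2.37, and the late libraries held 30.7, 54.3, 1.68 and 3.55. The late log2 ratio was 5.52 (interval 5.18 to 5.91), and the medium level was at least 94.2-fold higher in Lgals1-type cells, taking 3 UMIs as the floor of the Pdgfra-type sum. Most late Pdgfra-type UMIs of Thbs2 came from the 2 libraries of run 1. Thbs1 was near its floor in both types, with 69.1, 9.54, 0 and 14.6 in the medium libraries and 8.64, 4.40, 21.8 and 17.4 in the late ones of Lgals1-type cells and no UMI in Pdgfra-type cells. Its summed level was at least 8.31-fold higher in medium and at least 10.0-fold higher in late Lgals1-type cells by the same floor, on 15 and 42 UMIs. Without library T28A, which held 10 of the 15, the medium limit was 2.84-fold on 5 UMIs, under the minimum of 10, and without T24C the late limit was 5.55-fold. The medium limit of Thbs2 was 59.1-fold without T28B.

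Fn1 encodes fibronectin, which integrins assemble into fibrils, and Fbln2 encodes fibulin 2, a partner of basement membranes and elastic fibers. Fbln2 was at 739, 1269, 878 and 621 CPM in the medium libraries and 1587, 1600.3, 1588 and 1451 in the late ones of Lgals1-type cells. Pdgfra-type cells held 23.4, 8.64, 16.2 and 0 and 10.8, 56.7, 8.38 and 8.87. Every Lgals1-type library was above every Pdgfra-type library for this gene, and the log2 ratios were 5.97 (interval 5.63 to 6.37) late and 6.39 (interval 5.66 to 7.36) medium. Without library T24B the late Pdgfra-type level of Fbln2 fell from 24.8 to 9.33. So did those of Tnc (29.5 to 17.5), Thbs2 (25.6 to 11.7), Egflam (3.93 to 2.33) and Lgals1 (32.6 to 19.2), and that of Tinagl1 (4.32 to 2.01) without T24A. Fn1 set the types apart in the late sample. In late libraries it was at 153, 201, 125 and 207 in Lgals1-type against 14.4, 13.3, 5.03 and 8.87 in Pdgfra-type cells, a log2 ratio of 4.01 (interval 3.48 to 4.65). In medium libraries it was at 34.5, 19.1, 9.86 and 0 against 0, 8.64, 0 and 11.6, values that overlapped, and the interval of the medium log2 ratio of 1.17 (interval -0.26 to 2.71) included 0. Within single sequencing runs the medium ratio of Fn1 spanned -2.43 to 4.02, whereas its late ratio stayed between 3.71 and 4.42.

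Tinagl1 encodes a matricellular basement membrane protein related to cathepsin B without its protease activity, and Egflam encodes pikachurin, a dystroglycan ligand first described at photoreceptor synapses. Tinagl1 was at 1259.8, 1026, 980.4 and 833 CPM in the late libraries of Lgals1-type cells and at 12.6, 1.21, 3.35 and 1.77 in those of Pdgfra-type cells, a log2 ratio of 7.83 (interval 7.05 to 8.89). In the medium libraries it was at 6.91, 0, 4.93 and 38.8 against 0, 2.16, 0 and 0, on 10 UMIs and 1 UMI, and these values overlapped. Egflam separated the types at both stages. It was at 200.3, 282, 202 and 262 in the medium libraries and 462, 481, 393 and 452 in the late ones of Lgals1-type cells, and at 9.35, 0, 0 and 2.90 and 3.61, 7.24, 0 and 3.55 in those of Pdgfra-type cells. Its log2 ratios were 6.77 (interval 5.96 to 7.90) late and 6.44 (interval 5.09 to 8.95) medium, the latter against 3 Pdgfra-type UMIs.

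Emid1 encodes a secreted protein with an EMI domain and collagen-like repeats. It was at 464, 419, 488 and 278 CPM in the late libraries of Lgals1-type cells and at 64.9, 32.6, 31.8 and 21.3 in those of Pdgfra-type cells. In the medium libraries the values were 27.6, 52.5, 104 and 141 and 28.1, 17.3, 20.3 and 43.5, which overlapped. The log2 ratio was 3.50 (interval 3.20 to 3.82) late and 1.66 (interval 1.05 to 2.31) medium, and when every cell was typed on its own Lgals1 and Pdgfra UMIs rather than by subcluster, the medium value turned to -0.34.

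Sparc encodes osteonectin, a collagen-binding matricellular protein, and Lgals1 encodes galectin 1, a lectin of galactose-bearing glycans. Sparc was at 4006, 3641, 4024 and 3033 CPM in the medium libraries and 4196, 3994, 4069.6 and 3775 in the late ones of Lgals1-type cells. Pdgfra-type cells held 678, 279, 337 and 261 and 211, 316, 171 and 184. The gene was thus counted in both types, far apart, with log2 ratios of 4.12 (interval 4.01 to 4.25) late and 3.37 (interval 3.23 to 3.52) medium. Lgals1, which defined the types, was at 663, 367, 281 and 499.8 in the medium libraries and 1093, 1165, 1092 and 1024 in the late ones of Lgals1-type cells, and at 103, 23.8, 16.2 and 69.6 and 21.6, 60.4, 13.4 and 23.1 in those of Pdgfra-type cells.

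**Figure D2:**
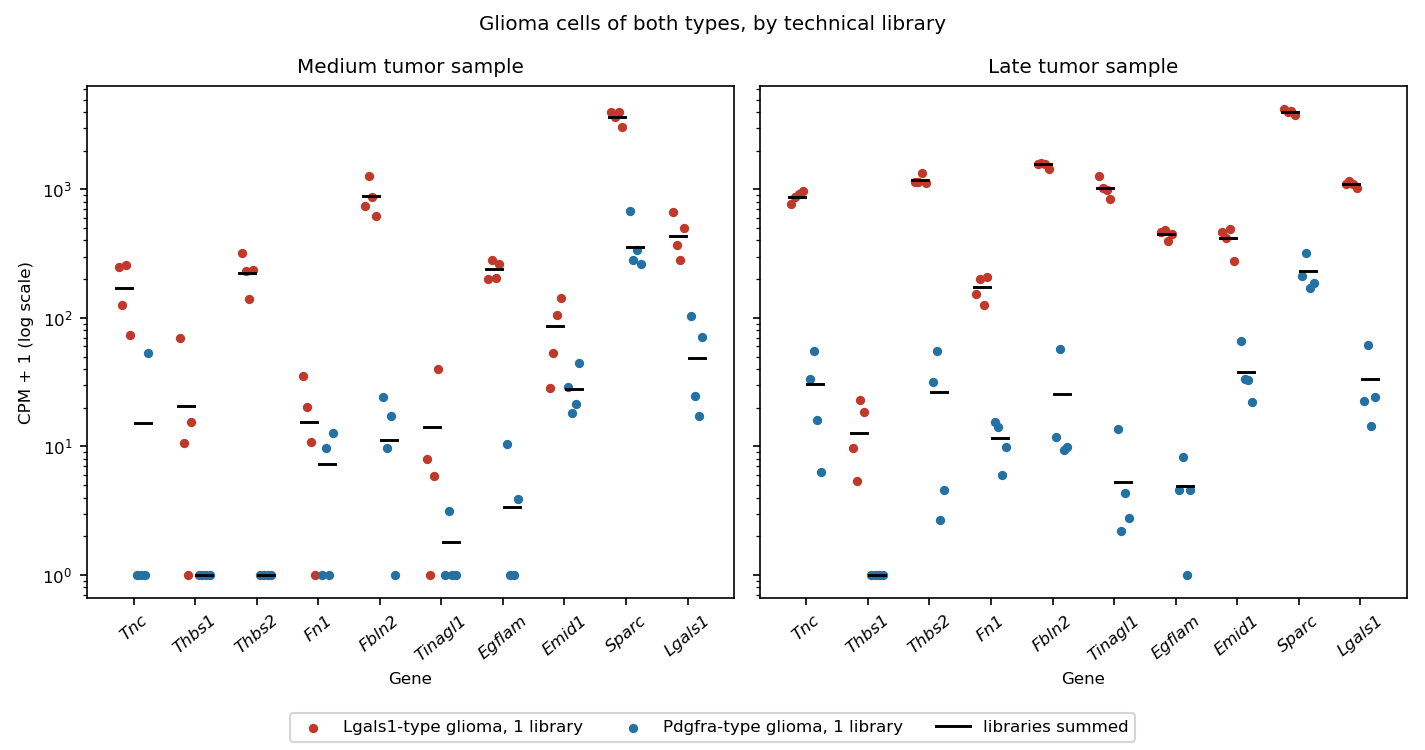
Points are technical libraries of the medium (left) and late (right) tumor sample, for Lgals1-type (red) and Pdgfra-type (blue) glioma cells; bars are the libraries summed. The y axis is CPM plus 1 on a log scale, so a library without a UMI sits at 1, as the late Pdgfra-type libraries do for Thbs1. In the late sample every red point lies above the blue points of its gene, a direction set by the choice of genes and types. How many of all genes do so was not counted, and the libraries are not independent.

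Single cells carried several of these transcripts at a time. A median of 7 of the 10 genes was detected per late Lgals1-type cell, and 355 of 420 cells (84.5%) had UMIs of 5 or more, against a median of 1 and 6 of 431 cells (1.39%) in late Pdgfra-type cells, whose median depth was 4907 UMIs against 7707.5. These numbers were not thinned to a common depth, and Lgals1, which defined the types, is 1 of the 10. Late Lgals1-type cells with 2 of the genes had a median of 1592.5 UMIs and those with 9 had 13179. Fbln2 was detected in 95.2% of late Lgals1-type cells and Tnc in 68.3%. In oligodendrocyte-like cells, used as the background of free RNA, 682 of them in the late sample, the late shares were 1.32% and 1.32% at a median of 2536.5 UMIs. With each cell thinned to 1000 UMIs they were 70.0% and 37.6% in late Lgals1-type cells, 1.57% and 1.34% in late Pdgfra-type cells, and 0.417% and 0.547% in late oligodendrocyte-like cells. Thinning left out 1 late Lgals1-type, 7 late Pdgfra-type and 16 late oligodendrocyte-like cells below that depth.

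Markers of other cells were counted in the same pools. Late Lgals1-type cells kept Sox10 (793 CPM, against 1107 in Pdgfra-type cells) and hsEGFR (1469.6 against 2963) but had few UMIs of the oligodendrocyte lineage factors Olig1 (4.21 against 1583) and Olig2 (4.77 against 619). The summed level of 7 fibroblast markers, 6 of them with UMIs, was 596 (519.8 to 667 over libraries) in late Lgals1-type and 51.1 (30.1 to 72.1 over libraries) in late Pdgfra-type cells. The collagen genes gave most of it, with Col3a1 at 317 against 3.93, Col1a2 at 222 against 11.8 and Col1a1 at 48.3 against 31.4. Lum was at 7.30 against 2.75, Dcn at 0.842 against 0.786, Igf2 at 0.842 against 0.393 and Slc6a13 at 0 in both types. The 9 astrocyte markers, of which 8 had UMIs, summed to 1167 (1085 to 1325 over libraries) against 240.2 (195 to 308 over libraries). Higher in late Lgals1-type cells were the gap junction gene Gja1 (958 against 15.7) and the glial filament gene Gfap (149.6 against 20.8). Lower were Aldoc (42.4 against 95.9), Slc1a2 (11.8 against 78.6), Fgfr3 (0.561 against 8.25), Ntsr2 (0.281 against 6.29), Slc4a4 (3.93 against 5.50), Aqp4 (1.12 against 3.54) and Cldn10 (0 against 5.50). The 8 endothelial markers summed to 161 (155 to 167 over libraries) against 63.3 (46.1 to 90.5 over libraries) with Tek at 0 in both types, the 8 mural markers to 29.2 (20.2 to 42.7 over libraries) against 15.7 (8.87 to 19.3 over libraries), and the 8 microglia markers to 121 (108 to 147 over libraries) against 35.4 (21.8 to 44.7 over libraries). In medium Lgals1-type cells the sums were 527 (fibroblast), 352 (astrocyte), 236 (endothelial), 93.0 (mural) and 60.3 (microglia markers). The part of such transcripts in the levels above and in the stage ratios below was not tested.

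The Lgals1-type cells were not uniform. Their 4 subclusters were led by Mgp, Itgbl1 and Aqp1 (230 cells), by Tinagl1, Calb1 and Ccn2 (103 cells), by the mitotic genes Tk1, Plk1 and Tpx2 (90 cells), and by predicted genes with the interferon-induced genes Gbp2 and Iigp1 (103 cells, of which 88 came from the medium sample). Tinagl1 was at 163, 1998, 779.6 and 2.94 CPM in that order, and Tnc at 496, 1139, 903 and 270.4. Both genes, like Thbs2, Emid1 and Lgals1, were at their highest in the Tinagl1-led subcluster and at their lowest in the interferon subcluster. Fn1 was at 52.8, 277, 114 and 113, with its lowest level in the Mgp-led cells, where Fbln2 (1818) and Sparc (4885) were at their highest. Sparc was lowest, at 2729, in the mitotic subcluster. The genes were chosen with earlier results of these data known, so the order is a description and carries no test.

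Among the 7 Pdgfra-type subclusters, 5 with 86 to 141 cells held 28.2 (led by Nsg2), 0 (Bex4), 0 (Igtp), 2.33 (Enpp6) and 48.5 (Hist1h2ap) CPM of Tnc. The Enpp6-led cells had little Lgals1 (4.66) or Pdgfra (64.1) and counted as Pdgfra-type since the latter was higher relative to all typed cells. The other 2 subclusters were small. The Cyp19a1-led one (24 late cells, median 2291 UMIs) held Thbs2 at 419 and Tnc at 262. The one led by the oligodendrocyte genes Car2, Ptgds and Mobp (16 cells, median 1864 UMIs) held Fbln2 at 711, Thbs2 at 624 and Sparc at 1803. The part of droplets with cells of more than 1 type in the latter was not tested.

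**Figure D3:**
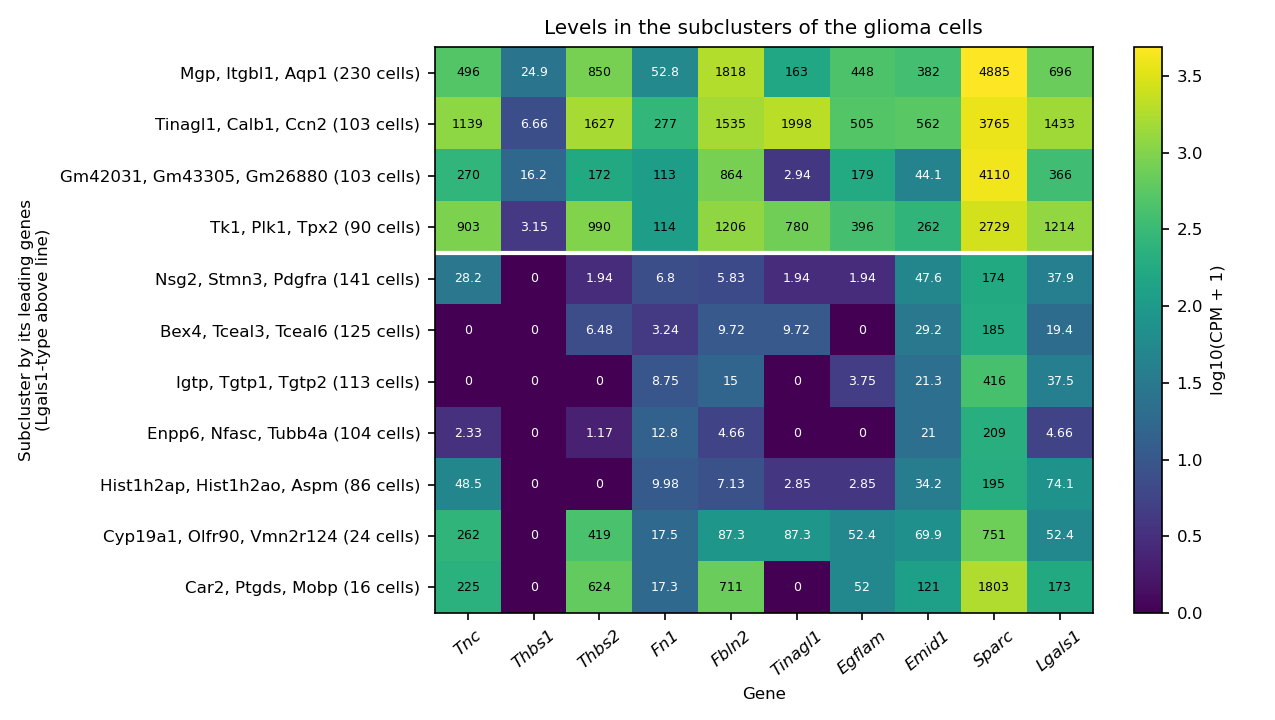
Heat map of the 10 genes (columns) in the 11 subclusters of hsEGFR cells (rows, named by leading genes), stages summed. Numbers are CPM, colors log10 of the value plus 1, and the white line parts the 4 Lgals1-type subclusters (above) from the 7 Pdgfra-type ones. Tinagl1 runs from 2.94 to 1998 above the line.

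Levels by stage within the glioma types were compared next, with 1 tumor sample per stage and thus no test. In Lgals1-type cells 6 of the 10 genes were at least 2-fold higher in the late than in the medium sample and none was as much lower, where 23.1% of 14586 genes passed in either direction, 14.5% of them upward and 8.65% downward. The log2 ratios were 6.22 (interval 5.41 to 7.35) for Tinagl1, 3.53 (interval 2.74 to 4.60) for Fn1, 2.41 (interval 2.19 to 2.64) for Thbs2, 2.37 (interval 2.12 to 2.64) for Tnc, 2.29 (interval 1.94 to 2.68) for Emid1 and 1.34 (interval 1.18 to 1.51) for Lgals1. Of the 10 medium UMIs of Tinagl1 8 were in library T28D, without which its medium level was 3.59 CPM instead of 13.1. Fbln2 (0.82) and Egflam (0.91) were short of 2-fold, Sparc was level (0.14), and Thbs1 was at -0.77 (interval -1.62 to 0.22), or 0.42 without library T28A. Within runs 1, 2 and 3 the ratio of Emid1 was 3.80, 2.63 and 0.96 and that of Lgals1 0.78, 1.74 and 1.03. Fbln2 was at 1.10, 0.56 and 1.22 and Egflam at 1.22, 0.69 and 0.78, so passing 2-fold depended on the run for these genes. The 4 early cells held 29 UMIs of Thbs2, or 1277 (95% interval 855 to 1835) CPM, 24 of Fbln2, or 1057 (95% interval 677 to 1573), and none of Tinagl1, which allows up to 132.

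The makeup of both types moved with the stage as well. Of the 102 medium Lgals1-type cells 88 lay in the interferon subcluster, against 15 of 420 late cells. Of the 178 medium Pdgfra-type cells 112 lay in the Igtp-led subcluster, against 1 of 431 late cells, and the 24 Cyp19a1-led cells were all late. The stage and the subcluster cannot be told apart for most Lgals1-type cells and for most medium Pdgfra-type cells. In Pdgfra-type cells 4 of the 9 genes with enough UMIs were at least 2-fold higher late than medium, where 15% of 14852 genes passed in either direction, 7.64% upward and 7.35% downward. Their log2 ratios were 1.02 (interval 0.30 to 1.88) for Tnc, 1.23 (interval 0.40 to 2.26) for Fbln2 and 1.93 (interval -0.33 to 7.88) for Tinagl1, while Thbs2 had no medium UMI and was at least 10.8-fold higher, or at least 4.93-fold without library T24B, which held 45 of the 65 late UMIs, and 6.86-fold without T28B. Of these 65 Thbs2 UMIs 36 were in the 4 late cells of the Car2-led subcluster and 24 in the Cyp19a1-led one. The Car2-led subcluster also held 41 Fbln2 UMIs, medium and late together, and the Cyp19a1-led one 15 of the 75 late Tnc UMIs. Within runs the ratio of Tnc spanned -3.11 to 4.50 and that of Fbln2 -0.38 to 2.75, and with 1 hsEGFR UMI as the minimum the summed ratios were -0.55 and -0.62. Without 1 library of run 1 (T24A in the annotation) the count was 2, and without the other (T24B) it was 3, the ratio of Tnc was 0.29 and that of Fbln2 turned to -0.15. Every medium Tnc UMI of this type was in library T28D, so the run values of Tnc in the other 2 runs rest on the prior of 0.5 counts. With 1 hsEGFR UMI as the minimum, a subcluster of 149 medium cells led by Igtp counted as Pdgfra-type. Its leading genes included Gm42031 and Gm43305, which led the Lgals1-type interferon subcluster at the minimum of 2. The type of some medium cells, and so the medium contrasts of the types, depended on this minimum.

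Cells other than glioma were described for each gene, to place its level in the tumor. For Tnc, progenitors without the transgene held 26.4, 182 and 32.9 CPM early, medium and late, and fibroblast-like cells 0, 67.9 and 68.2. Endothelial-like and astrocyte-like cells each had 1 UMI in total, although reactive astrocytes are known to make tenascin-C after injury. Astrocyte-like cells were few, with 83 early, 54 medium and 24 late. The late ones had no UMI, which allows up to 85.2, so they cannot be placed below late fibroblast-like cells or progenitors. The medium progenitor libraries held 573, 61.6, 83.4 and 0, with 61 of 79 UMIs in the first of them, and without T24C the late levels were 16.0 in progenitors and 41.2 in fibroblast-like cells. Mural-like cells held 0, 0 and 111, the last on 8 UMIs in 27 cells. In myeloid cells, with all stages summed, Tnc was at 0.0858 (microglia-like), 0 (macrophage or monocyte-like) and 4.79 (a myeloid cluster led by Cxcl9). The 22 UMIs of the Cxcl9-led cluster were all in the medium sample.

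Thbs2 outside the glioma cells was chiefly in fibroblast-like cells, at 235, 175 and 303 CPM early, medium and late, with a medium level of 105 without library T28B. Thbs1 had another distribution. It was at 571, 1150.4 and 938 in neutrophil-like cells and at 518, 606 and 102 in macrophage or monocyte-like cells. Fibroblast-like cells held 1281 (95% interval 1162 to 1410.0) early, 60.8 (95% interval 35.4 to 97.3) medium and 324 (95% interval 255 to 406) late, the widest stage range of this gene among classes of 50 or more cells at each stage. Without library T28B the medium fibroblast-like level was 6.20, and without 1 of the libraries the late neutrophil-like level was 116 (L24C) or 1734 (L24D), the early one 857 (L04B) and the late macrophage or monocyte-like one 161 (L24D). The gene was not detected in astrocyte-like cells, which allows up to 8.48.

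Fn1 was at 816, 1623 and 2767 CPM early, medium and late in fibroblast-like cells, at 1061, 1049 and 1579 in endothelial-like and at 326, 540.1 and 1718 in mural-like cells. The late level was the highest of the 3 in each of these classes, and without library T04B the early mural-like level was 600.1. In myeloid cells the order by stage was not shared, with 990.2, 1349 and 681 in macrophage or monocyte-like cells, 36.8, 54.8 and 742 in the Cxcl9-led cluster and 8.83, 262 and 270.0 in border macrophage-like cells, whose medium level was 161 without library L28D. Fbln2 was at 27.5, 50.1 and 8.53 in fibroblast-like and 17.0, 9.41 and 32.1 in endothelial-like cells, against 1568 in late Lgals1-type cells, and was at 4.40, 124 and 35.9 in progenitors without the transgene. Of the 54 medium progenitor UMIs 40 came from library T28C, the libraries held 122, 8.79, 303 and 0, and the medium level without it was 46.2.

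Tinagl1 was a vessel gene outside the glioma cells, at 305, 306 and 248 CPM early, medium and late in endothelial-like and 143, 486 and 180.1 in mural-like cells, and it was at 39.5 in choroid plexus-like and 39.3 in neutrophil-like cells over all stages. Egflam was at 296, 324 and 249 in mural-like and 48.9, 53.6 and 68.2 in fibroblast-like cells, where the early level, on 16 UMIs, was 21.3 without library T04A and 74.9 without T04B, so the order of its stages was not fixed. Emid1 was at 132, 156 and 59.8 in progenitors without the transgene, against 85.2 medium and 419.6 late in Lgals1-type cells, whose 4 early cells had no UMI, which allows up to 132 and so gives no early contrast. It had no UMI in fibroblast-like cells, which allows up to 3.57. Astrocyte-like cells had no UMI of Tinagl1 or Egflam, which allows up to 8.48 over all stages, and 1 of Emid1.

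Sparc was at 5219, 4018 and 5678 CPM early, medium and late in microglia-like cells, at 2176, 1057 and 1809 in the Cxcl9-led cluster, and at 305, 178 and 260.0 in macrophage or monocyte-like cells. Endothelial-like cells held 2809, 3355 and 4681, mural-like cells 2100.3, 2389.8 and 4752, fibroblast-like cells 1355, 2743 and 2503 and astrocyte-like cells 879, 1367 and 1222. Microglia-like and late Lgals1-type cells (4013) thus had levels of the same order. Lgals1 was at 721, 699.8 and 869.5 in T cell-like, 420.1, 772 and 911 in border macrophage-like, 267, 528 and 709.9 in macrophage or monocyte-like and 214, 783 and 921 in fibroblast-like cells, and its late level was the highest of the 3 in each of them.

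For 2 classes the ratio of late to early was read against all genes. In endothelial-like cells (154 early, 66 late) none of the 4 genes with enough UMIs reached 2-fold, where 29.3% of 6270 genes did (16% upward and 13.3% downward), with log2 ratios of 0.74 (interval 0.57 to 0.90) for Sparc, 0.61 (interval -0.95 to 2.09) for Egflam, 0.57 (interval 0.30 to 0.85) for Fn1 and -0.28 (interval -0.95 to 0.33) for Tinagl1. The 10 early UMIs of Egflam were all in library T04B, and its ratio was -1.49 without library T24A. In microglia-like cells (3893 early, 973 late) 2 of 4 genes did, where 10.9% of 16044 genes did (6.06% upward and 4.81% downward). Fn1 was at 8.37 early and 50.6 late, a log2 ratio of 2.59 (interval 2.14 to 3.06). Of the 100 late UMIs 22 came from the 14 microglia-like cells of library L24B, without which the ratio was 2.26, and the ratio was 3.32 within run 2 and 1.54 within run 3, both outside the counting interval. Lgals1 was at 15.2 and 65.8, a log2 ratio of 2.11 (interval 1.74 to 2.48), with 2.39 within run 2 and 1.48 within run 3. Sparc (0.12) and Thbs1 (-0.06) were near 0 on this scale. The late microglia-like Fn1 level was far below that of macrophage or monocyte-like cells (681).

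**Figure D4:**
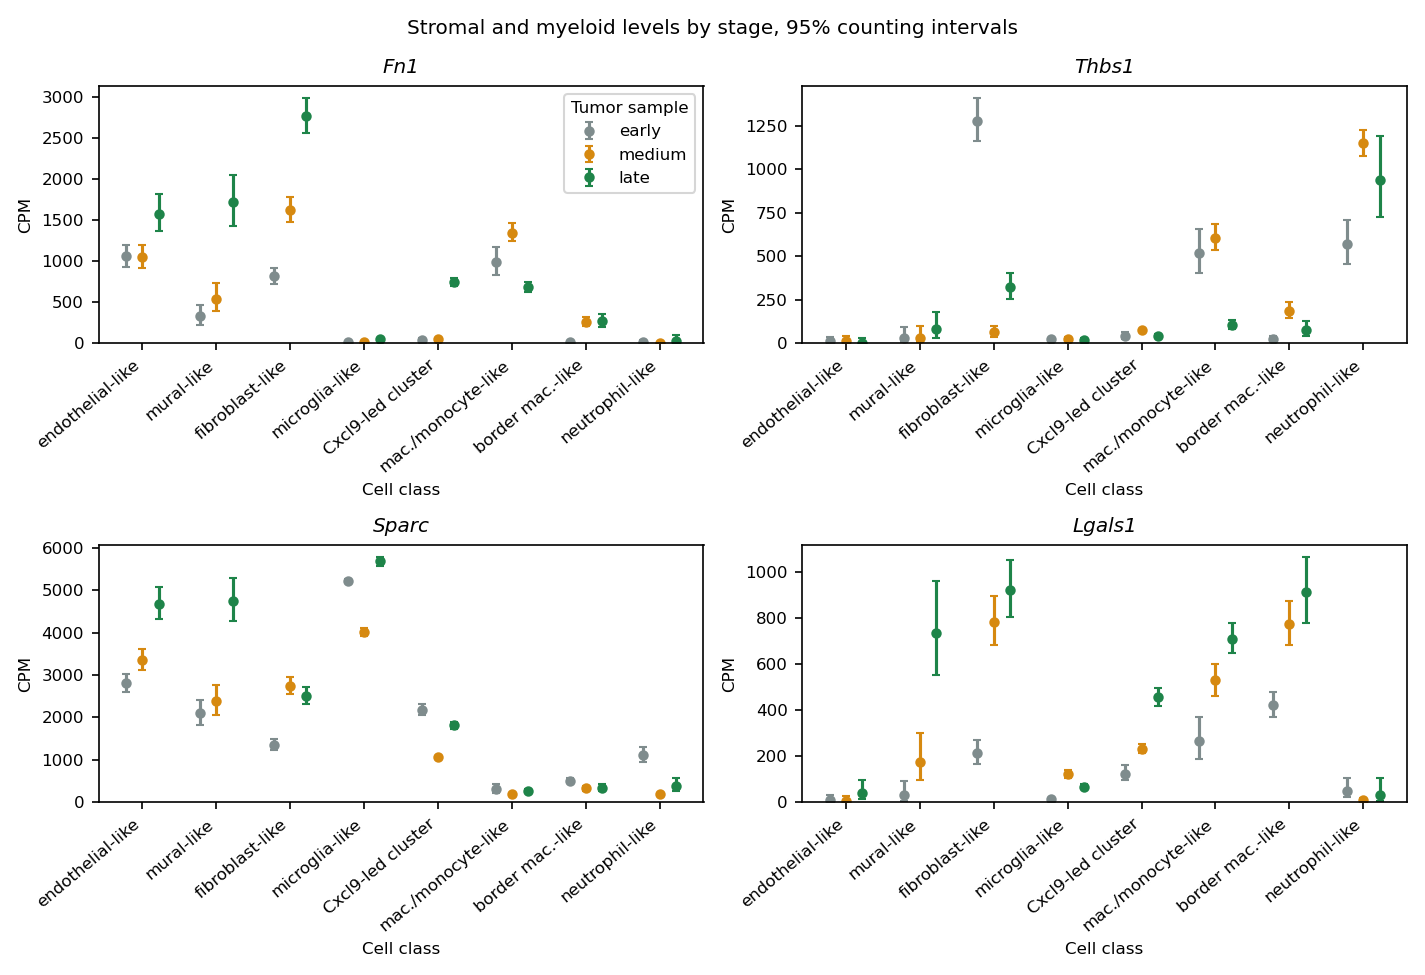
Levels of Fn1, Thbs1, Sparc and Lgals1 (y axes, CPM, linear) in 8 stromal and myeloid classes (x axes), for the early (gray), medium (orange) and late (green) tumor sample, with 95% exact Poisson intervals as bars. Fn1 in fibroblast-like cells steps from 816 to 1623 and 2767, and Thbs1 in the same class is at 1281, 60.8 and 324.

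The share of each gene's UMIs that a class held was set by both its level and its number of UMIs. Late Lgals1-type cells were 18.5% of the late CD45- cells and 33.6% of their UMIs. They held 94.4% (95% exact binomial interval 93.6 to 95.1%) of the CD45- UMIs of Tinagl1, 91.2% of Fbln2, 90.9% of Egflam, 90.0% of Thbs2, 88.6% of Tnc, 88.6% of Emid1, 82.6% of Lgals1 and 77.6% of Sparc. Fn1 and Thbs1 were shared out otherwise, with 36.7% and 27.1% in Lgals1-type and 38.4% and 49.0% in fibroblast-like cells. In the early CD45- sort, with 4 Lgals1-type cells, fibroblast-like cells held 79.8% of Thbs1 and 50.3% of Thbs2, progenitors without the transgene 96.8% of Emid1, endothelial-like cells 48.6% of Tinagl1 and choroid plexus-like cells 79.2% of Lgals1. In the early CD45+ sort microglia-like cells held 92.1% of Sparc.

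The sorts were compared without the cell classes, but not independently of them, since the genes were chosen with their class levels known and the CD45- sums hold the same UMIs, of which late Lgals1-type cells alone held 88.6 to 94.4% in the late sample for the 6 genes called higher. UMIs were summed per tumor sample and sort and compared by edgeR's quasi-likelihood test with the tumor sample as a block, which leaves 2 residual degrees of freedom, and p-values were adjusted over all 18510 genes tested by Benjamini-Hochberg. They measure the spread over 3 tumor samples of different stages, moderated toward the spread of all genes tested. The p-values thus do not rest on the 2 residual degrees of freedom alone. Each SE below is the size of the log2 difference divided by the square root of the test's F statistic. In these sums more cells of a type and more RNA per cell cannot be told apart. Of the 10 genes 6 were higher in CD45- cells, where 25.7% of all genes were, and 1 was lower, where 20.3% were. Nothing is read from these counts or from the adjusted p of single genes given below, since the choice of genes bears on both. Of all genes called, 55.8% were higher, and 71.6% were with library totals in place of TMM scaling, under which the median of all genes moved from 0.04 to 0.40.

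By stage, from early to late, the CD45+ sorts held 1.20, 3.70 and 10.5 CPM of Thbs2 and the CD45- sorts 18.9, 39.8 and 443, a log2 difference of 3.96 (SE 0.44, adjusted p = 5.47e-04). Tnc was at 0, 7.81 and 12.6 and 2.22, 54.3 and 333, a difference of 3.49 (SE 0.53, adjusted p = 0.00203). Each was higher in the CD45- sort of 3 of 3 tumor samples, and the widest gap in CPM was in the late sample.

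Fbln2 was at 0.278, 18.8 and 41.2 CPM in the CD45+ and 5.80, 129.7 and 578 in the CD45- sorts, a log2 difference of 3.06 (SE 0.34, adjusted p = 4.63e-04). Tinagl1 was at 1.57, 4.52 and 4.14 and 18.3, 22.6 and 366, a difference of 3.71 (SE 0.80, adjusted p = 0.00883), with CD45- values of like size early and medium and a late value far above them. With every gene of at least 1 UMI tested, the adjusted p of Tinagl1 was 0.190 by the same edgeR test. Egflam was at 0.185, 4.63 and 14.5 and 7.53, 41.8 and 167, a difference of 3.22 (SE 0.34, adjusted p = 4.11e-04). Emid1 was at 0.740, 5.65 and 9.59 and 7.65, 27.7 and 159, a difference of 2.85 (SE 0.40, adjusted p = 0.00140). These 4 genes too were higher in the CD45- sort of 3 of 3 samples.

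Sparc fell on the other side, at 4198, 1300.3 and 2975 CPM in the CD45+ and 639.7, 1121 and 1739 in the CD45- sorts, a log2 difference of -1.57 (SE 0.50, adjusted p = 0.0400), lower in the CD45- sort of 3 of 3 samples. The call was lost with library totals in place of TMM scaling (-1.21, adjusted p = 0.0893) and without the early tumor sample (-0.94, adjusted p = 0.131). The test was not passed by Lgals1 at -0.85 (SE 0.32, adjusted p = 0.0664), Thbs1 at -1.90 (SE 0.94, adjusted p = 0.143) or Fn1 at -0.11 (SE 0.51, adjusted p = 0.884). Thbs1 was higher in the CD45- sort early (64.8 against 34.3) and lower at both later stages, Lgals1 was lower in the CD45- sort early and medium and higher late (451 against 367), and Fn1 was higher in the CD45- sort early and medium and lower late.

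Without the block 2 of the 6 genes, Thbs2 and Tinagl1, stayed past the threshold (adjusted p = 0.0257 and 0.0187 by the same edgeR test), and adjusted p was 0.109 for Tnc, 0.162 for Fbln2, 0.0925 for Egflam and 0.0607 for Emid1. The CD45+ sort held hsEGFR UMIs too. At least 2 were counted in 197 of its 11168 cells (1.76%), from 0.0196% early to 3.59% medium and 2.53% late, against 17.6% of CD45- cells. Of the 197 cells 143 lay in the clusters of glioma or oligodendrocyte progenitor markers and 13 had a UMI of Ptprc, the CD45 gene, and whether they were sorted tumor cells, doublets or immune cells with free RNA was not tested. They held 82.2% of the CD45+ UMIs of Fbln2, 75.5% of Tnc, 75% of Egflam, 57.9% of Emid1, 56.2% of Thbs2 and 22.9% of Tinagl1. With every cell of at least 1 hsEGFR UMI left out of both sorts, an alternative chosen after seeing the data, the same 6 genes were higher, with log2 differences from 2.51 (Emid1) to 3.59 (Egflam), and both Sparc (-2.17) and Lgals1 (-1.67) were lower.

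**Figure D5:**
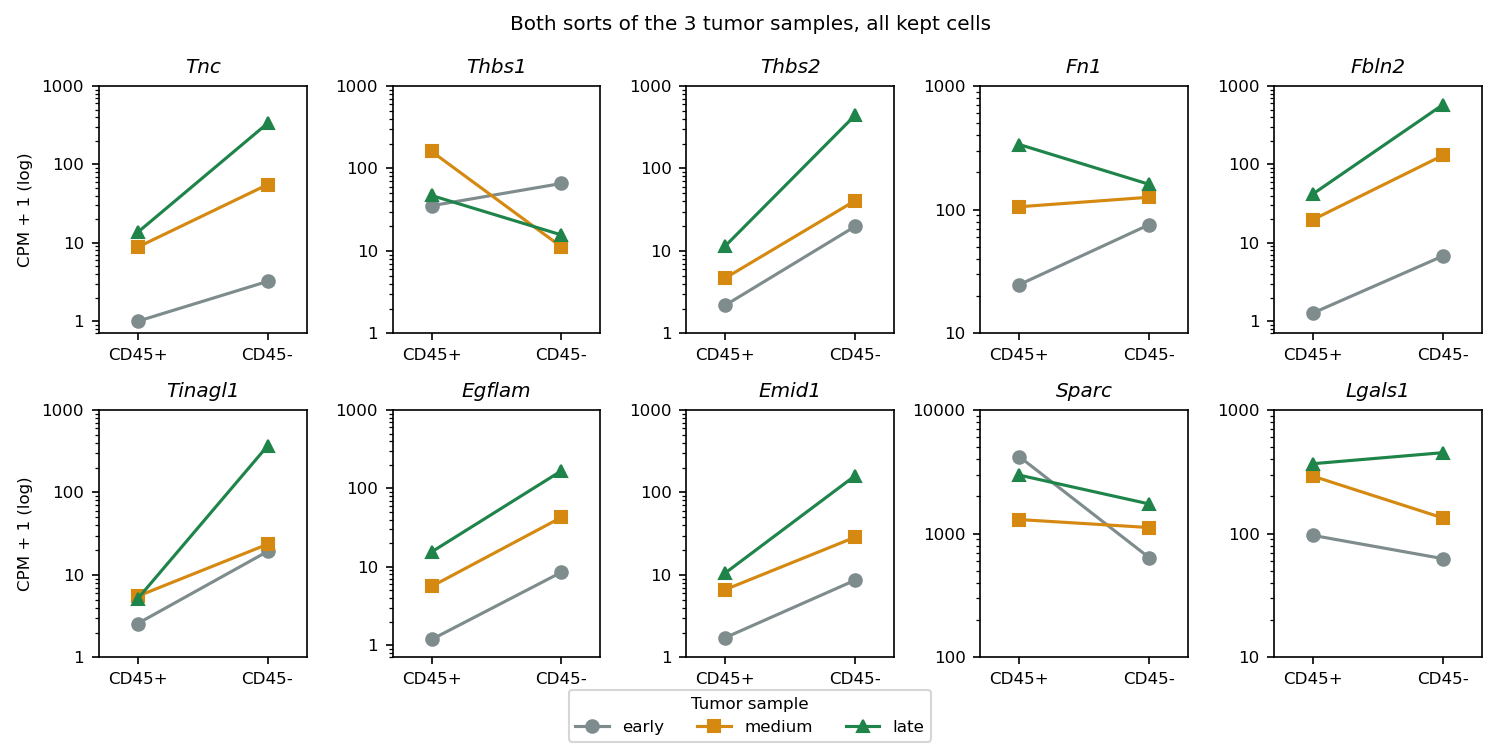
Each panel plots 1 gene in the CD45+ and CD45- sort of the early (gray circles), medium (orange squares) and late (green triangles) tumor sample, all kept cells summed. The y axis is CPM plus 1 on a log scale with its own range per panel, and lines join the sorts of a sample. All 3 lines go up to CD45- for Tnc, Thbs2, Fbln2, Tinagl1, Egflam and Emid1 and all 3 go down for Sparc.

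Other matrix glycoproteins and their receptors, from lists that name 58 and 30 genes, were read in the same way. Of 46 listed glycoproteins with enough UMIs 31 were at least 2-fold higher in late Lgals1-type than Pdgfra-type cells and 8 lower, beside 12.3% and 18.4% of all genes, with a median log2 ratio of 2.78 against -0.18 over all genes. Postn, which encodes the matricellular protein periostin, was at 1029 against 7.86 CPM, and Mgp, an inhibitor of calcification, at 398 against 6.29, a log2 ratio of 5.94. The galectin gene Lgals3 had 27.5 against no UMI, at least 23.3-fold higher, or 11.4-fold without library T24B. Lower were Tnr, the tenascin of the oligodendrocyte lineage and perineuronal nets (0.561 against 691, -9.94 on 2 UMIs), and the calcium-binding proteoglycan gene Spock2 (-4.62) with Smoc1 (-3.95), a relative of Sparc. In the medium sample 28 of 43 were at least 2-fold higher and 8 lower, beside 10.9% and 22.2% of all genes.

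Among receptors 15 of 28 were at least 2-fold higher in late Lgals1-type cells and 6 lower, beside the same 12.3% and 18.4% of all genes, with a median log2 ratio of 1.18 against -0.18 over all genes. The thrombospondin receptor gene Cd36 (24.1 against 0 CPM, at least 20.5-fold) and the integrin genes Itgb5 (19.6 against 0, at least 16.7-fold) and Itga8 (427 against 5.90, 6.13) led them, with limits of 11.97 and 10.4 for Cd36 and Itgb5 without library T24B. Lower were Cntn1, a contactin that binds tenascin-R (8.14 against 699, -6.40), and the lipoprotein receptor genes Lrp8 (-2.74) and Lrp1 (-2.24). In the medium sample 12 of 26 receptors were higher, among them Itga6 (4.51) and the hyaluronan and osteopontin receptor gene Cd44 (3.48), and 6 lower, beside 10.9% and 22.2% of all genes.

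From medium to late Lgals1-type cells 15 of 46 listed glycoproteins were at least 2-fold higher and 10 lower, beside 14.5% and 8.65% of all genes, with a median log2 ratio of 0.15 against 0.14 over all genes. Tgfbi (56.4 against 0 CPM) and Mfge8 (3.83) were among the higher, and the interferon-induced Lgals3bp (-4.48) and Spock1 (0 against 14.4) among the lower. Without library T28B 3 medium UMIs of Spock1 were left, under the minimum of 10. Of 28 receptors 3 were higher, where 14.5% of all genes were, Itga8 (5.26), Cd36 (at least 6.14-fold) and the syndecan gene Sdc1 (2.22), and 2 lower, where 8.65% were, Cntn1 (-2.27) and Cav1 (-1.36). In Pdgfra-type cells the counts were 3 higher and 7 lower of 38 glycoproteins and 1 each of 25 receptors, beside 7.64% and 7.35% of all genes. Endothelial-like cells had 12 higher and 3 lower of 25 glycoproteins from early to late, with the basement membrane genes Lamb1 (5.06) and Nid1 (4.62) at the head, and 2 higher and 1 lower of 11 receptors, beside 16% higher and 13.3% lower of all genes. Microglia-like cells had 6 higher and none lower of 31, with Emilin2 (4.13) and the osteopontin gene Spp1 (2.75) at the head, and 3 higher and 2 lower of 23 receptors, beside 6.06% and 4.81%.

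Across the sorts 37 of 53 tested glycoproteins were higher in CD45- cells and 6 lower by the same edgeR test, where 25.7% and 20.3% of all genes were, with a median log2 difference of 2.53 against 0.04 over all genes. The highest were the thrombospondin gene Thbs3 (5.08), Edil3 (4.77) and the tenascin-X gene Tnxb (4.46). The lowest were Lgals9 (-3.76), Lgals3 (-3.46) and Spp1 (-3.26), genes known in myeloid cells. Of the 30 receptors 10 were higher and 9 lower, beside 25.7% and 20.3% of all genes, with Vldlr (4.20), Sdc2 (3.91) and Itgb8 (3.51) at one end and Cd36 (-4.29), Itgb5 (-3.88) and Itga5 (-2.41) at the other. Cd36 and Itgb5 were thus counted more in CD45+ cells while being higher in Lgals1-type than in Pdgfra-type glioma cells.

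The likeness of patterns was measured as Pearson's r of log2(CPM + 1) over 44 pools of a class and stage with at least 50 cells, among 16358 genes, and is given with no test, since pools share libraries and differ in depth. For Tnc the nearest genes were Moxd1 (0.82), Cdh6 (0.80) and Foxd3 (0.79), and for Thbs2 Efemp1 (0.85), Fkbp10 (0.84) and Col5a2 (0.83). For Fbln2 they were Egflam (0.83), Dag1 (0.81) and Col5a2 (0.80), for Egflam Lama4 (0.89), Adgra2 (0.87) and Col3a1 (0.86) and for Tinagl1 Clec14a (0.84), Angpt2 (0.77) and Actn4 (0.77). Egflam, itself a member, was the gene nearest to Fbln2. For Emid1 they were Pnlip (0.87), Pcdh20 (0.84) and Sstr1 (0.82), for Fn1 Ecm1 (0.85), Cenpb (0.74) and Thbd (0.73), for Thbs1 Ube2l6 (0.78), 2700054A10Rik (0.74) and Pgd (0.73), for Sparc Pros1 (0.83), Lpcat3 (0.75) and Il6st (0.75) and for Lgals1 Rpl39 (0.82), Rpl10-ps3 (0.81) and Rpl41 (0.80). Between members r was 0.76 for Thbs2 and Fbln2, 0.72 for Tnc and Fbln2 and 0.65 for Tnc and Thbs2, but -0.08 for the thrombospondin genes Thbs1 and Thbs2 and -0.41 for Thbs1 and Emid1.

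The genes lie apart in the genome on build GRCm38, with Tnc (chr4:63959785-64047015) and Tinagl1 (chr4:130164454-130175122) on chromosome 4, Emid1 (chr11:5106265-5152257) and Sparc (chr11:55394500-55423183) on chromosome 11, and Egflam (chr15:7206120-7398395) and Lgals1 (chr15:78926725-78930465) on chromosome 15. Thbs1 is at chr2:118111876-118127133, Thbs2 at chr17:14665500-14694235, Fn1 at chr1:71585520-71653200 and Fbln2 at chr6:91212455-91272540.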

How the data were processed

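Dissociated mouse brain tumors, sorted on CD45, were measured by single-cell RNA sequencing (inDrop). One element of the tumor genotype is not reported here. Per the study's methods, the authors mapped reads with RapMap in bcbio-nextgen to the GRCm38 transcriptome and called cells against empty droplets, and they state removal of free RNA and doublets, without saying whether this came before the table. The deposited counts also hold rows for transgenes such as hsEGFR. The deposited values are raw UMI counts per gene and cell, which the authors did not normalize. A second deposited table is a text annotation that gives each library's sort, stage and run. The 3 deposited samples are sequencing runs that each mix stages and sorts, so groups were taken from this annotation; 17 columns of a late CD45+ library were not used.

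Cells with at least 500 UMIs, at least 500 genes and at most 20% mitochondrial UMIs were kept, and Scrublet as run in scanpy 1.11.5 (expected rate 6%, 20 components) called 113 of 17786 scored cells (0.635%) doublets. Cells were clustered with leidenalg 0.10.2 (Python 3.11.15). Ratios of summed UMIs used a prior of 0.5 counts, a minimum of 10 UMIs and a threshold of 2-fold, and a floor of 3 counts where a group had none. Sorts were compared with edgeR 4.0.16 (R 4.3.3), robust, TMM-scaled, with adjusted p under 0.05, and with DESeq2 1.42.0 as an alternative. The script was tested on simulated data. The tumor sample is a block because both sorts of a stage come from the same tumor sample, and the paired sorts' deviations correlated at r = 0.38 early, 0.28 medium and 0.31 late across 18510 genes, which are not independent replicates. All 10 genes were named, and of the other lists up to 3 genes per direction with the largest difference. The genes and lists were chosen with earlier results of these data known. Alternatives covered scaling, low-count filters, cell filters, doublets, typing rules, each left-out library or tumor sample and shared barcodes.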

Additional observations from a re-analysis of the deposited data

Results flagged for a closer look

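Within 43 groups of 4 technical libraries, 5 had a library set apart from the other 3 by Dixon's test, which flags about 1 in 20 groups of independent values by chance. Technical libraries that share barcodes are not independent, so this rate need not hold here. In late Lgals1-type glioma cells Fbln2 was at 1451 CPM (UMIs scaled to a total of 1000000) in the library of run 3, below 1587 to 1600.3 in the other 3, and Thbs2 was at 1337 in the library of run 2, above 1121 to 1140.2. Sparc was at 323 in the medium B cell-like cells of 1 library, against 167 to 180.3 in the others, and at 205 in the early oligodendrocyte-like cells of 1 library, against 148 to 155. Thbs1 was at 45.0 in the early microglia-like cells of 1 library, against 19.6 to 21.6.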

How the results depend on the processing

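For the sorts, 6 of the 10 genes were higher in CD45- cells in the reported edgeR fit, and the fit without the tumor sample block called 2, with log2 differences of 3.89 (Tnc), 3.19 (Fbln2), 3.18 (Egflam) and 3.25 (Emid1) for the genes it lost; the cause was not tested. The count of lower genes was 1 as reported, 0 with library totals in place of TMM scaling, and 2 with DESeq2, with every deposited cell, with human EGFR cells left out or with shared barcodes left out, the latter both chosen after seeing the data. Leaving out a tumor sample gave 1 to 2 lower genes, with 2 without the late sample. The second gene was Lgals1 in each of these cases (adjusted p 0.0261 with DESeq2, 0.0472, 0.00111 and 0.0269 in that order, and 0.0134 without the late sample). Without the early sample Thbs1 was called (-3.23, adjusted p = 0.0164 by edgeR) and Sparc was not. Fn1, not called in any fit, turned to 0.26 with library totals and 0.22 with human EGFR cells left out, and was -0.86 to 0.57 with a tumor sample left out.

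All 10 genes stayed at least 2-fold higher in late Lgals1-type cells under every alternative run, and 7 to 10 did in medium ones, where Emid1 turned to -0.34 with each cell typed on its own. This direction was set by the choice of genes and types, so its return in other runs of the same cells is no support for it. From medium to late, 5 to 9 genes differed in Lgals1-type cells. In Pdgfra-type cells the count of 4 went to 2 with the highest 5% of doublet scores removed and was 2 to 4 with a library left out. There Fbln2 turned to -0.29 with these scores removed, -0.62 with 1 hsEGFR UMI as the minimum and -0.15 to 1.63 with a library left out (-0.15 without T24B), and Tnc to -0.55 with that minimum; the cause was not tested. In endothelial-like cells the count of 0 was 2 at a 1.5-fold threshold and 0 to 1 with a library left out (1 without T24A or T24B). In microglia-like cells it was 2 under every alternative run. With 1 tumor sample per stage, no difference between stages has a replicate check.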
